A study of Homo sapiens with 6 samples.

Results

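The cell cycle control genes are 41 genes: 8 cyclins, 4 cyclin-dependent kinases (CDKs), 6 CDK inhibitors, 13 genes of the RB/E2F group and 10 mitotic regulators, out of 20037 protein-coding genes of the RefSeq annotation of GRCh38.p14. A gene was counted as bound when a ChIP-seq peak lay inside or within 3 kb of its gene body. Chromatin was precipitated from clones 4 and 5 of K562, a human chronic myelogenous leukemia line, in which USF2 and FLAG-tagged PLAG1-S, the short isoform of PLAG1, were co-overexpressed. Each clone gave an anti-FLAG library (PLAG1-S), an anti-USF2 library and an input, so that each factor had 2 libraries. Both factors were expressed from the same lentiviral construct in every library, and each clone is a line of its own. The anti-FLAG antibody sees the introduced PLAG1-S alone, whereas the anti-USF2 antibody sees introduced and endogenous USF2. A K562 line without the construct was not analysed here. Any level given below is therefore that of overexpressing cells.

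Cyclins bind and activate CDKs, which drive the cell from one phase of the cycle to the next. In G1 the D-type cyclins with CDK4 and CDK6, and then the E-type cyclins with CDK2, phosphorylate the RB family and release E2F factors, which switch on genes of S phase. The INK4 proteins (CDKN2A to CDKN2D) hold CDK4 and CDK6, and p21 and p27 (CDKN1A and CDKN1B) hold CDK2 complexes. Entry into mitosis turns on CDK1 with the B-type cyclins, which WEE1 restrains and the CDC25 phosphatases release, while FOXM1 and MYBL2 drive the mitotic genes. USF2 is a basic helix-loop-helix leucine zipper protein that binds the E-box CACGTG, and PLAG1 is a zinc finger protein that binds a G-rich bipartite consensus.

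RefSeq promoter windows, from 250 bases before to 50 bases after a gene start, were given for 32 of the 41 genes (50 windows). CCND1, CCND2, CCNE2, CDK2, E2F5, E2F8, AURKA, WEE1 and FOXM1 were not among them. The 250 bases before the start are shown for the gene with the largest folds of both factors (CDK4), for 3 genes with an E-box no more than 6 bp from the PLAG1-S summit in clone 4 (E2F3, CCNB1 and PLK1), and for a co-bound gene with no E-box there (CDC25C). Capitals mark CACGTG, which reads the same on both strands. The windows are chr12:57752311-57752560 on the minus strand for CDK4, chr6:20403364-20403613 on the plus strand for an internal start of E2F3, chr5:69166900-69167149 on the plus strand for CCNB1, chr16:23678639-23678888 on the plus strand for PLK1 and chr5:138338356-138338605 on the minus strand for CDC25C.
CDK4: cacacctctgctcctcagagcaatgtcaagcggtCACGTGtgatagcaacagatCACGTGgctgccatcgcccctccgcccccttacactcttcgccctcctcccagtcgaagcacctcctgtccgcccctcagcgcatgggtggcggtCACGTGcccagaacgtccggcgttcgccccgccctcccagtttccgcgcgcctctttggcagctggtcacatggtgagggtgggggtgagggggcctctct
E2F3: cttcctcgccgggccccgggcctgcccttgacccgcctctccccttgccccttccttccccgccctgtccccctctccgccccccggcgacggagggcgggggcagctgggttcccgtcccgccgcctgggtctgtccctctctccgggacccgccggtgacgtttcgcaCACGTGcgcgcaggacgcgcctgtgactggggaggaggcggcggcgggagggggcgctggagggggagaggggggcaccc
CCNB1: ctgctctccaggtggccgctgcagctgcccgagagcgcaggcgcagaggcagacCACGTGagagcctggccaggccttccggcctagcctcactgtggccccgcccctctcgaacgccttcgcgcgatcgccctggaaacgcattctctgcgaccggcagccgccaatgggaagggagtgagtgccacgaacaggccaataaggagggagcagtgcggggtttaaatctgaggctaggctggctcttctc
PLK1: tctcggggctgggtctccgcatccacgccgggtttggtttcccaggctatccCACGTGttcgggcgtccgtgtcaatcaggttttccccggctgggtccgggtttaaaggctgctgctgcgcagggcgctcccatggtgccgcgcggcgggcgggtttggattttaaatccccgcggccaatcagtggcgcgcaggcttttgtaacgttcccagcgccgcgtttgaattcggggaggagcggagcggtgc
CDC25C: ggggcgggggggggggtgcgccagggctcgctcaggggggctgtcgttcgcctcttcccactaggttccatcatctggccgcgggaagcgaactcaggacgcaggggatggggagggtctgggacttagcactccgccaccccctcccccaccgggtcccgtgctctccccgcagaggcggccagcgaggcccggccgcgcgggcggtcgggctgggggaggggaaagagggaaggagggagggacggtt

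The lists held 37574 and 29889 PLAG1-S peaks in clones 4 and 5, and 9338 and 4369 USF2 peaks. The largest q-value was 0.0099 and 0.0097 in the PLAG1-S lists against 0.0494 and 0.0477 in the USF2 lists, so the threshold was looser for USF2. Peaks of one factor that met in both clones, sharing 1 bp or more, were called reproducible and are given by their clone 4 interval. This left 21469 PLAG1-S and 2409 USF2 peaks, of which 55 and 11 lay at the cell cycle genes. The fold of a peak is the enrichment at its summit over the local background, as deposited. Summits at the cell cycle genes held 12 to 252 fragments over a local background of 2.60 to 7.51, both solved from the fold and the Poisson p-value that the authors deposited for each peak. All counts are descriptions, and no test was run on the chosen genes, since each factor has 2 clones.

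PLAG1-S was found at most of the cell cycle genes, and USF2 at fewer. A reproducible PLAG1-S peak lay at 32 of the 41 genes (78.0%, 95% Wilson interval 63.3% to 88.0%, which covers counting error only), against 52% of all protein-coding genes. A reproducible USF2 peak lay at 8 genes (19.5%, interval 10.2% to 34.0%), against 10.3%. These were CCND1, CCND3, CDK4, CDKN2C, E2F3, E2F6, CDC25C and FOXM1. All 8 were also co-bound, meaning that a reproducible PLAG1-S and a reproducible USF2 peak lay within 100 bp of each other, against a background of 9.98%. The genes were chosen with earlier results of these data known, so the intervals are not a test against these backgrounds. The median gene length was 19495 bp for the cell cycle genes and 24115 bp for all. A −log10 q of at least 10 in both clones was a far stricter limit than the authors'. It left PLAG1-S at 17 of the 41 genes, against 33% of all protein-coding genes. USF2 and co-binding were each left at 5 genes, against 5.85% and 5.74%. The PLAG1-S count thus depended on the threshold, falling from 32 to 17 genes as its background fell from 52% to 33%. Within 1 kb of either gene end the counts were 29 genes for PLAG1-S against 40.1%, 7 for USF2 against 7.46% and 7 co-bound against 7.39%.

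Every functional group held PLAG1-S and USF2 peaks. PLAG1-S was reproducible at 7 of 8 cyclins, 3 of 4 CDKs, 4 of 6 inhibitors, 10 of 13 RB/E2F genes and 8 of 10 mitotic genes. USF2 was reproducible at 2 cyclins, 1 CDK, 1 inhibitor, 2 RB/E2F genes and 2 mitotic genes, beside 10.3% of all genes (52% for PLAG1-S). Without clone 5, USF2 was called at 5 cyclins, 2 CDKs, 1 inhibitor, 6 RB/E2F genes and 3 mitotic genes (25.3% of all genes). With so few genes the intervals of the 5 groups overlap for both factors, and the groups were not ranked by their shares.

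**Figure D1:**
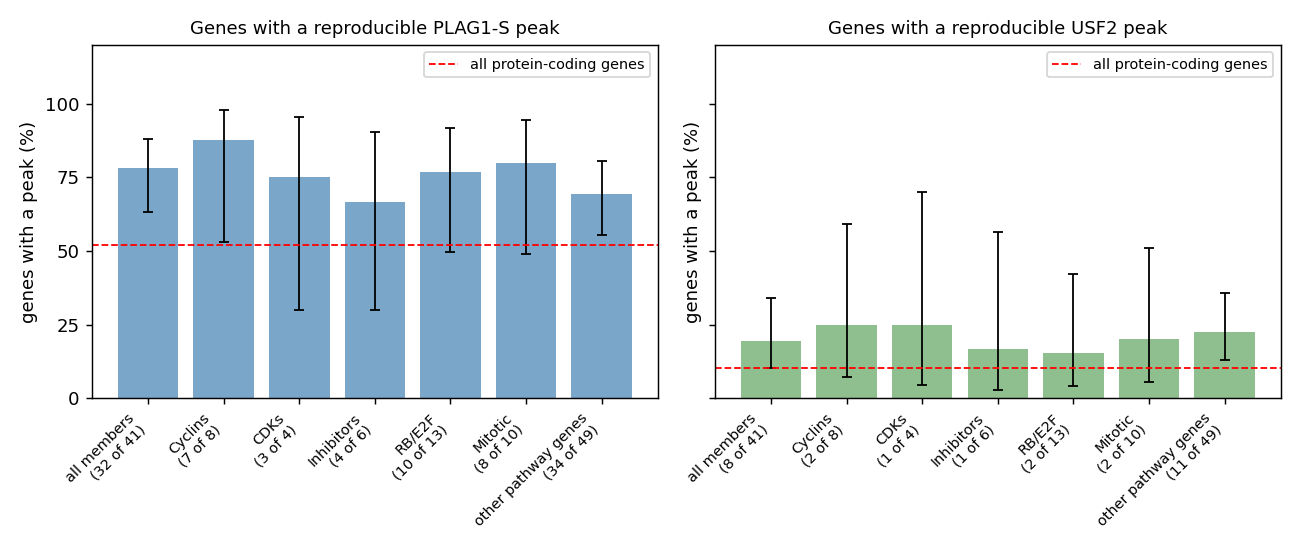
Percent of genes with a reproducible PLAG1-S peak (left) and USF2 peak (right) for all 41 cell cycle genes, their 5 groups and 49 other genes of the pathway. Error bars are 95% Wilson intervals and the dashed line is the share of all protein-coding genes, 52% and 10.3%.

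The strongest peaks of the cell cycle genes had median folds close to those of other bound genes. The median fold of the strongest reproducible PLAG1-S peak was 8.56 in clone 4 and 6.15 in clone 5 over the 32 bound cell cycle genes, and 8.17 and 6.71 over all protein-coding genes with such a peak. For USF2 the medians were 8.83 and 6.77 over 8 genes, against 8.38 and 6.11. By group, the median PLAG1-S fold in clones 4 and 5 was 10.9 and 8.31 for cyclins, 16.4 and 10.9 for CDKs and 12.6 and 8.66 for inhibitors. It was 7.18 and 5.59 for RB/E2F genes and 6.52 and 5.11 for mitotic genes. The lowest clone 4 fold was 3.30 to 5.33 and the highest 18.7 to 49.6 in the 5 groups, so the groups overlapped.

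**Figure D2:**
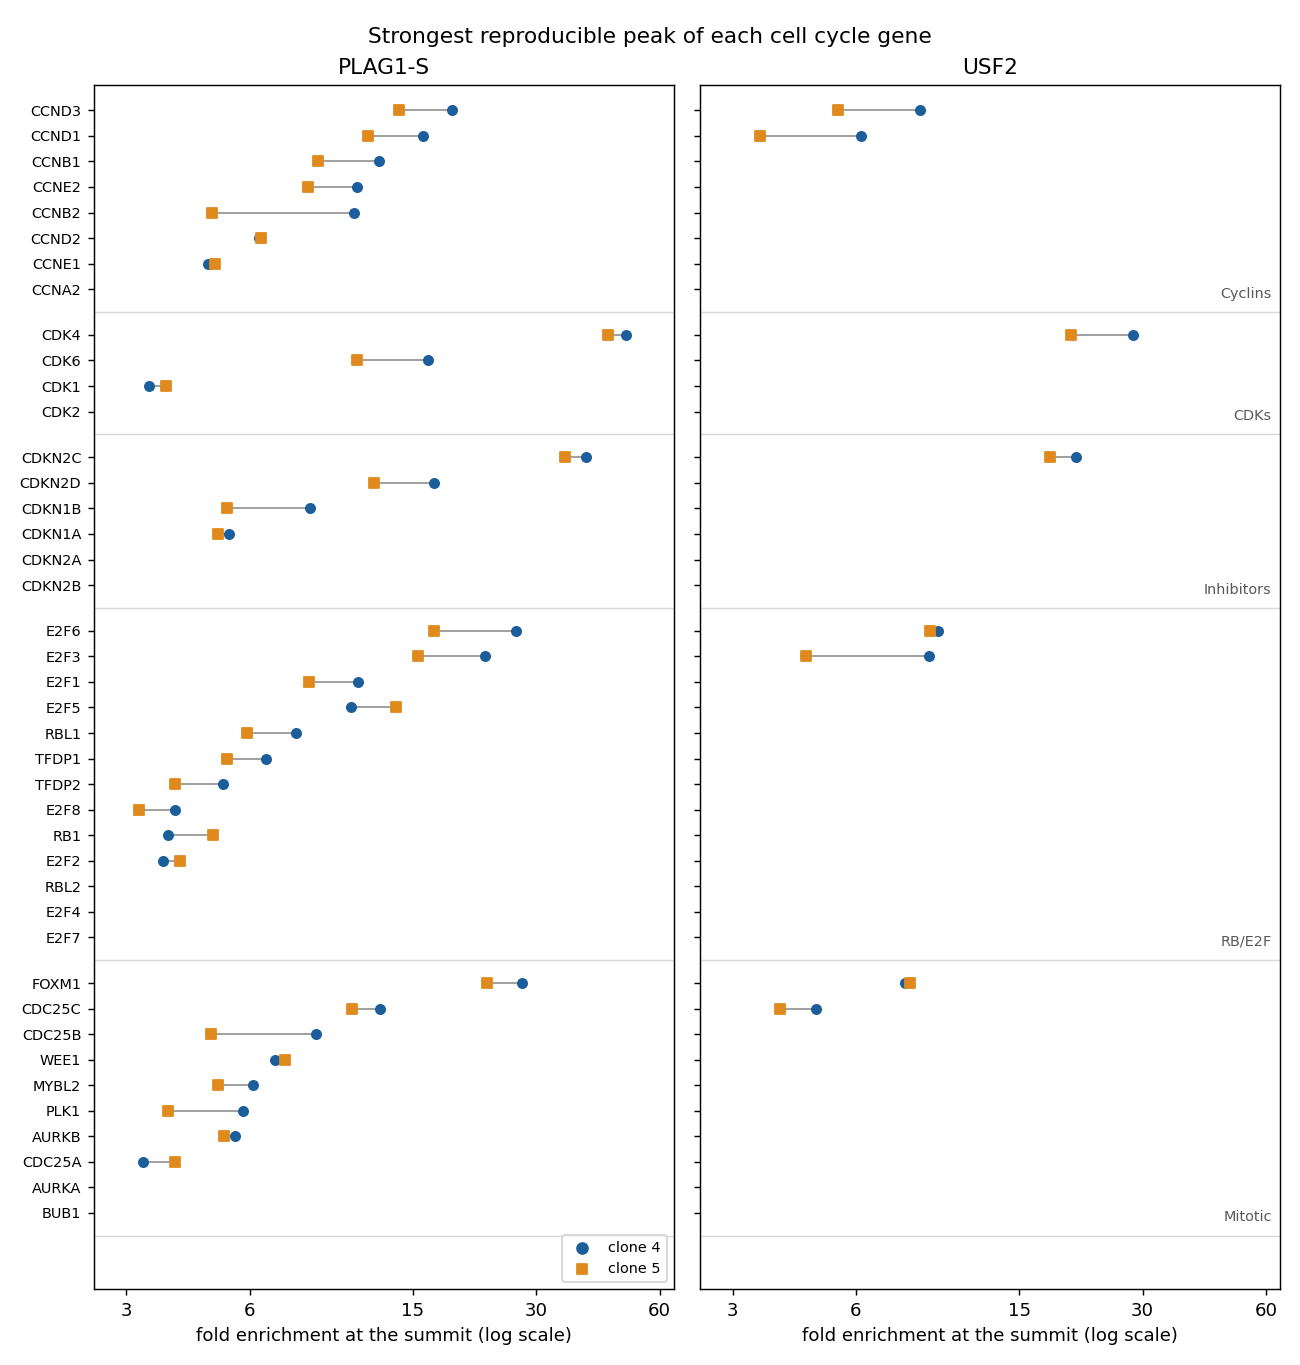
Fold enrichment (log scale) of the strongest reproducible peak of each of the 41 genes in clone 4 (circles) and clone 5 (squares), with PLAG1-S on the left and USF2 on the right. Genes with no symbol had no reproducible peak, and CDK4 and CDKN2C stand to the right of all others for both factors.

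CDK4 and CDKN2C, a kinase of G1 and the INK4 protein p18 that inhibits it, carried the strongest peaks of both factors. At CDK4 (chr12:57751610-57752811) the PLAG1-S fold was 49.6 in clone 4 and 44.9 in clone 5, from 235 and 193 fragments (95% Poisson intervals 206 to 267 and 167 to 222). This peak ranked 21 by fold in its clone 4 list and 20 in its clone 5 list, within the top 0.0559% and 0.0669%. Its summit lay 75 bp before the annotated start of CDK4. The USF2 fold there was 28.4 and 20.1, from 129 and 88 fragments, ranks 33 and 53 in the USF2 lists. The E-box at position −101, counted from the start site, was 23.5 and 7.5 bp from the PLAG1-S summits of clones 4 and 5 and 131.5 and 23.5 bp from those of USF2. The E-box at −216 was 16.5 bp from the clone 4 USF2 summit and 91.5 bp from that of clone 5, and all 3 copies of CACGTG in the CDK4 sequence above lay inside the peaks. A weaker USF2 peak (6.08 and 4.94) lay further into the gene.

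At CDKN2C (chr1:50959669-50960727) the PLAG1-S fold was 39.7 and 35.3, from 252 and 214 fragments. The USF2 fold was 20.6 and 17.8, from 126 and 115 fragments. The summits of the 2 factors lay 2 bp apart in clone 4, at 415 bp before the start of CDKN2C, and 63 bp from the end of FAF1, which was the nearest coding gene end. The peak can thus belong to either gene. The clone ranges of CDK4 (44.9 to 49.6) and CDKN2C (35.3 to 39.7) did not overlap each other or the range of FOXM1 (22.8 to 27.7), the next in order. Below this, FOXM1, E2F6, E2F3 and CCND3 had ranges that overlapped from neighbor to neighbor, although their order was the same within each clone.

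FOXM1, which drives genes of G2 and mitosis, had a PLAG1-S peak at chr12:2876830-2877589 with folds of 27.7 and 22.8 and a USF2 peak with folds of 7.89 and 8.12. Its summit lay 5 bp outside the upper end of the gene. CDC25C, the phosphatase that activates CDK1, had PLAG1-S folds of 12.5 and 10.7 (chr5:138338123-138338856) and USF2 folds of 4.78 and 3.91, the lowest clone 4 USF2 fold of the 8 genes. All 4 summits of these CDC25C peaks lay in the printed sequence, which holds no CACGTG. The windows of the CDC25C starts further into the gene, at 138331877 and 138331804, held no summit.

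Among the E2F genes the co-bound members were E2F3, an activator of S phase genes, and E2F6, a repressor that does not bind RB. E2F6 (chr2:11465476-11466291) had PLAG1-S folds of 26.8 and 16.9 and USF2 folds of 9.50 and 9.09, with summits 6 bp apart and 520 bp inside the gene. E2F3 (chr6:20401715-20403983) had PLAG1-S folds of 22.5 and 15.5 and USF2 folds of 9.05 and 4.53. The E2F3 summit lay 1659 bp inside the gene, next to the internal start whose sequence is shown above. Its CACGTG at −80 was 1.5 and 16.5 bp from the PLAG1-S summits and 11.5 and 87.5 bp from the USF2 summits. Both genes held a second reproducible USF2 peak, with folds of 3.62 and 4.24 at E2F3 and 5.88 and 4.70 at E2F6.

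Of the D-type cyclins, CCND1 and CCND3 were co-bound. At CCND3 (chr6:42050004-42050828) the PLAG1-S fold was 18.7 and 13.8 and the USF2 fold 8.61 and 5.43, with summits 3 bp apart. This peak lay 383 bp outside the upper end of the CCND3 gene body and 106 bp from the end of TAF8. The RefSeq starts given for CCND3 lay further in, at 42048688, 41941808 and 41939205, and their windows held no summit of this peak. Reproducible PLAG1-S peaks over these starts had folds of 9.78 and 6.74, 3.63 and 4.45, and 8.83 and 8.08, with no reproducible USF2 peak. At CCND1 the co-bound peak (chr11:69644232-69644720) lay inside the gene, 3318 bp from its lower end, with PLAG1-S folds of 14.1 and 11.8 and USF2 folds of 6.18 and 3.51. The strongest CCND1 peak of PLAG1-S in clone 4 was another, 1881 bp outside the lower end, with folds of 15.9 and 11.7 and no USF2. The 2 CCND1 peaks did not differ beyond the spread between clones.

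**Figure D3:**
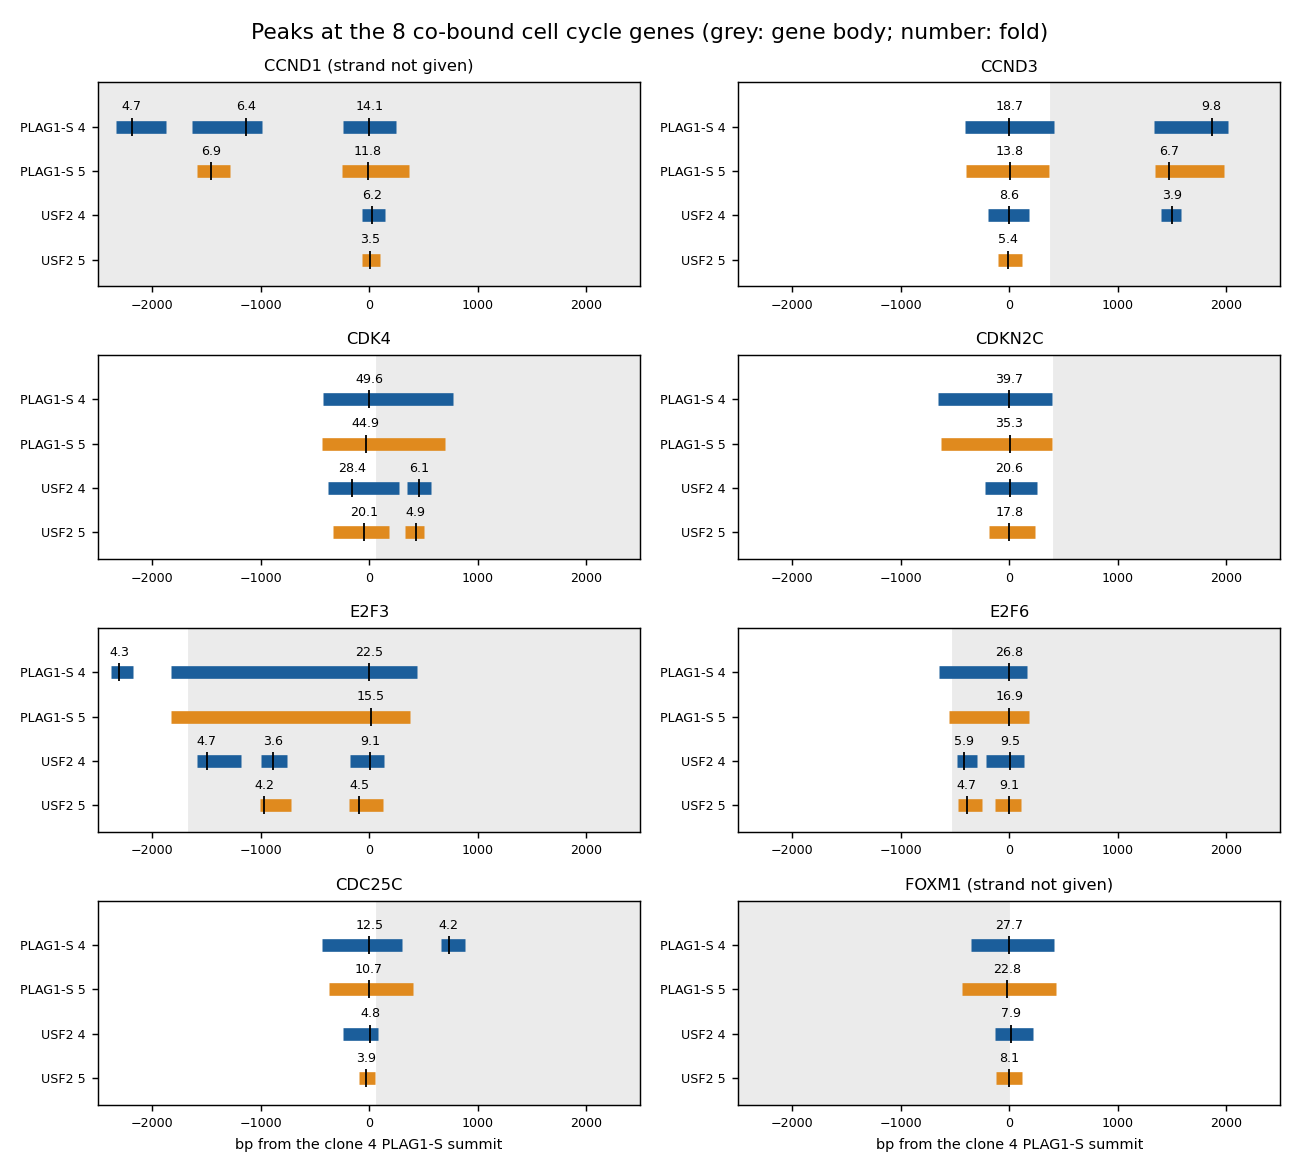
Peak intervals of the 4 lists at the 8 co-bound genes, in bp from the clone 4 PLAG1-S summit, drawn 5′ to 3′ where the strand was given and along the chromosome for CCND1 and FOXM1. Bars are peaks (blue clone 4, orange clone 5), ticks are summits, numbers are folds and grey is the gene body, and at each gene a USF2 peak of either clone lies over the PLAG1-S peak.

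The genes that also held USF2 had the higher median PLAG1-S fold. The strongest PLAG1-S peak of the 8 genes with reproducible USF2 had clone 4 folds of 12.5 to 49.6 (median 24.7) and clone 5 folds of 10.7 to 44.9 (median 16.2). For the 24 bound genes without reproducible USF2 these were 3.30 to 16.9 (median 6.45) and 3.23 to 13.7 (median 5.11). The ranges of the 2 sets overlapped in both clones. For CCND1 the strongest PLAG1-S peak (15.9 in clone 4) was not the co-bound one. Whether the same holds over all protein-coding genes was not tested. Over the genome, 2106 of the 2409 reproducible USF2 peaks (87.4%) lay within 100 bp of a reproducible PLAG1-S peak, and at the cell cycle genes all 11 did.

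Among genes with PLAG1-S and no reproducible USF2, CDKN2D, the INK4 protein p19, had the largest clone 4 fold. Its 3 reproducible peaks had folds of 16.9 and 12.0, 10.4 and 9.32, and 9.64 and 8.07 in clones 4 and 5. The strongest had its summit 2754 bp from the start of CDKN2D, past the other end of this gene of 2520 bp, and 215 bp from the end of KRI1. The weakest of the 3 was the nearest to the start of CDKN2D, 694 bp before it. CDK6, the other kinase of the D-type cyclins, had folds of 16.4 and 10.9 at 106 bp before its start. CCNB1, the mitotic partner of CDK1, had folds of 12.4 and 8.79 at 193 bp before its start. Its CACGTG at −196 lay 0.5 and 4.5 bp from these summits, and a USF2 peak of clone 4 alone (fold 3.41) had its summit 37.5 bp away. E2F1, the founding activator of the family, had PLAG1-S folds of 11.0 and 8.38 at 38 bp before its start and a USF2 peak in clone 4 alone (4.54).

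CDKN1B, which encodes p27, had folds of 8.43 and 5.28 at 187 bp before its start, where GPR19 was nearer (65 bp). CDC25B, a phosphatase that acts at entry into mitosis, had folds of 8.69 and 4.82. Its clone 4 summit lay inside the gene, 8782 bp from the start of the gene body. The summits of both clones lay in the promoter window of an internal RefSeq start of CDC25B (chr20:3795539-3795788, plus strand). The remaining 17 genes with reproducible PLAG1-S had clone 4 folds of 3.30 to 10.9 (median 5.78) and clone 5 folds of 3.23 to 13.7 (median 5.03). RB1, which encodes the retinoblastoma protein itself, was among the weaker, with folds of 3.78 and 4.87. PLK1, a mitotic kinase, had folds of 5.78 and 3.80, with its CACGTG at −198 lying 5.5 and 25.5 bp from the summits. RB1 and PLK1 were chosen for mention with their values known.

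Most of the strongest PLAG1-S summits lay near the start of the gene, meaning the 5′ end of its annotated body, or near either end where no strand was given. The summit was within 500 bp of the start, or of the nearer end where no strand was given, at 22 of the 32 genes, and within 1 kb at 26. For the 25 genes with a strand, 18 were within 500 bp, and the median distance from the start was 302 bp. The same shares over all bound protein-coding genes were not computed, so these are not shown to be a trait of the cell cycle genes. At 6 of the 32 genes another coding gene had an end nearer to the summit (TAF8, NDUFAF6, GPR19, FAF1, KRI1 and LOC124901482, next to CCND3, CCNE2, CDKN1B, CDKN2C, CDKN2D and E2F3). Just inside the limit of 3 kb stood PLAG1-S peaks 2598 bp from E2F1 (folds 8.73 and 6.34) and 2368 bp from CDKN1B (6.85 and 5.83). Just outside stood PLAG1-S peaks 3160 bp from CDKN1B (6.85 and 9.44) and 4086 bp from CCND2 (7.85 and 6.71), the latter with USF2 (4.98 and 4.11) at 4200 bp.

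CACGTG was found in 8 of the 50 promoter windows of the cell cycle genes, at CCNB1, CDK4, CDK6, CDKN2C (2 windows), E2F3, MYBL2 and PLK1. All 8 were among the 22 windows with a reproducible PLAG1-S peak, and 0 of the 28 windows without one held it. Of all 35116 RefSeq windows 7.26% held CACGTG, against 20.0% of those with a reproducible PLAG1-S peak and 65.5% of those with a reproducible USF2 peak. Seen from the E-box, 1557 of the 2548 windows with CACGTG had a reproducible PLAG1-S peak (61.1%), whereas 22.2% of all windows did. Of the same windows 832 had a reproducible USF2 peak (32.7%), whereas 3.62% of all windows did. Of the 6 cell cycle windows with reproducible USF2, which came from 5 genes, 3 held CACGTG (CDK4, CDKN2C and E2F3). Overlapping windows of the same gene, as at CDC25C, were counted separately in all these counts. At CDKN2C the E-box at −220 lay 195.5 to 197.5 bp from the 4 summits of the co-bound peak, and a second one, at −69 from another start, lay 29.5 bp from the summits of a PLAG1-S peak without USF2. At MYBL2 the E-box lay 371.5 bp from the clone 4 and 6.5 bp from the clone 5 PLAG1-S summit. CACGTG was thus not at the summit in each of these genes. A match of letters is a description and not a site.

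The PLAG1 bipartite consensus, searched on both strands, was in 16 of the 50 windows. It was in 10 of the 22 windows with a reproducible PLAG1-S peak and in 6 of the 28 without, and over all windows the shares were 44.8% with a peak and 27.0% in all. CCAAT and TTTGAA, elements known from mitotic promoters and searched on both strands, were in 24 and 10 of the 50 windows, against 34.6% and 15.2% of all windows. TTTGAA was in 3 of the 22 windows with a PLAG1-S peak and in 7 of the 28 without, and in 5.99% of all windows with a peak. CCAAT was in 11 and 13 of these windows.

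Where a peak was called in both clones, the folds at the cell cycle genes were mostly lower in clone 5. Peaks called in a single clone have no part in this comparison. Over the strongest peaks of the 32 genes, the median log2 ratio of the clone 5 to the clone 4 PLAG1-S fold was −0.30 (SD 0.35, range −1.15 to 0.37), against −0.17 (SD 0.45) over all reproducible peaks. For USF2 it was −0.40 (SD 0.37) over 8 genes and −0.28 (SD 0.38) over all. The peaks of the genes were picked by their clone 4 fold, whereas the sets of all peaks were not, so these medians are not on equal terms. Over all reproducible peaks with a clone 4 fold of at least 10 the medians were −0.41 for PLAG1-S and −0.46 for USF2. The PLAG1-S fold was higher in clone 5 at 8 of the 32 genes and the USF2 fold at 1 of 8. E2F5, a partner of the RB-like proteins chosen for mention with its values known, had 10.6 in clone 4 and 13.7 in clone 5.

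**Figure D4:**
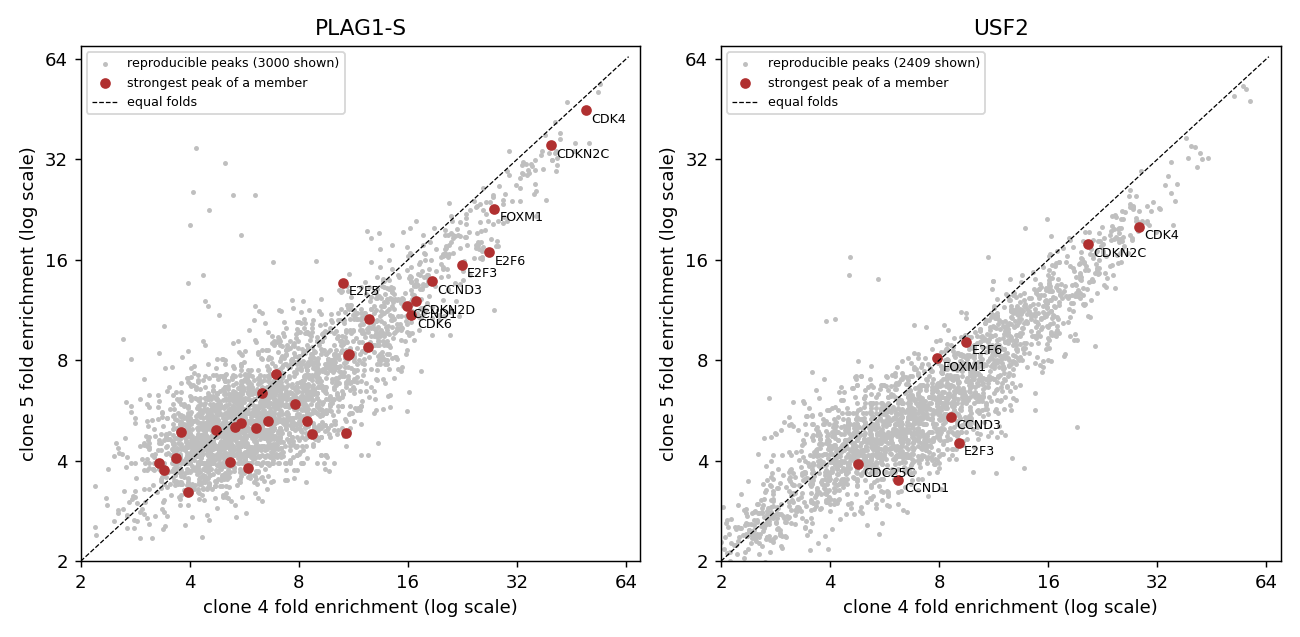
Clone 5 against clone 4 fold enrichment (both on log scales) for PLAG1-S (left, 3000 of the reproducible peaks drawn) and USF2 (right, all 2409), with the strongest reproducible peak of each cell cycle gene in red. Most red points lie below the dashed line of equal folds, as do most grey points, and E2F5 lies above it.

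Some genes differed between clones in whether a peak was called. By clone, a PLAG1-S peak was called at 35 genes in clone 4 and 36 in clone 5 (backgrounds 64% and 58.3%), and a USF2 peak at 17 and 8 (25.3% and 13.6%). PLAG1-S was called in 1 clone at CCNA2 and E2F7 (clone 5) and at BUB1 (clone 4), and in both clones without overlap at CDK2 and E2F4. USF2 was called in clone 4 alone at 9 genes (CCNB1, CCNB2, CCNE2, CDK6, E2F1, E2F2, E2F4, RBL1 and WEE1) and in clone 5 alone at 0. At 8 of these 9 a PLAG1-S peak of clone 4 lay within 100 bp, RBL1 being the exception, and their largest USF2 folds were 2.97 to 6.22. A peak in either clone was counted at 37 genes for PLAG1-S (background 67.8%), 17 for USF2 (27.1%) and 17 for co-binding (22.1%). Within clone 4 alone 16 genes were co-bound (20.5%), and within clone 5 alone 8 (11.3%). With 50% reciprocal overlap between clones PLAG1-S was counted at 25 genes (46.2%). The clone 5 USF2 list was also the shortest of the 4, and its part in this difference was not tested. CDK1, the mitotic kinase, had a reproducible PLAG1-S peak with folds of 3.41 and 3.75, and a stronger clone 4 peak with no clone 5 overlap (fold 9.48, 57 fragments) at 1265 bp inside the gene. Of the 5626 clone 4 PLAG1-S peaks at least as strong, 83 (1.48%) had no clone 5 overlap.

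CDKN2A, CDKN2B, RBL2 and AURKA had no peak in any of the 4 lists. CDKN2A and CDKN2B, neighbors that encode the inhibitors p16 and p15, lay in a stretch of chromosome 9 with no peak summit over 7.23 Mb in the clone 4 PLAG1-S list, 13.3 Mb in the clone 5 PLAG1-S list and 14.1 Mb in each USF2 list. Between positions 20 and 26 Mb, a width of 6 Mb, each list held 0 peaks, whereas the whole chromosome held 12.7, 10.8, 3.90 and 1.72 peaks per Mb in the same order. Other parts of the same arm were also empty. Counted in bins of 1 Mb, both PLAG1-S lists held no peak over 5 Mb, and both USF2 lists over 12 Mb, at lower coordinates than the stretch with the genes. The stretches around CDKN2A and CDKN2B held 30 to 57 protein-coding genes. K562 is known to lack CDKN2A and CDKN2B, and how far the loss reaches into the empty stretches was not examined. A peak that is absent for want of DNA cannot be told apart here from one that is absent for want of binding. RBL2, an RB-like pocket protein, and AURKA, a kinase of the spindle poles, had their nearest peaks outside the limit, at 10.8 kb and 6.09 kb.

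**Figure D5:**
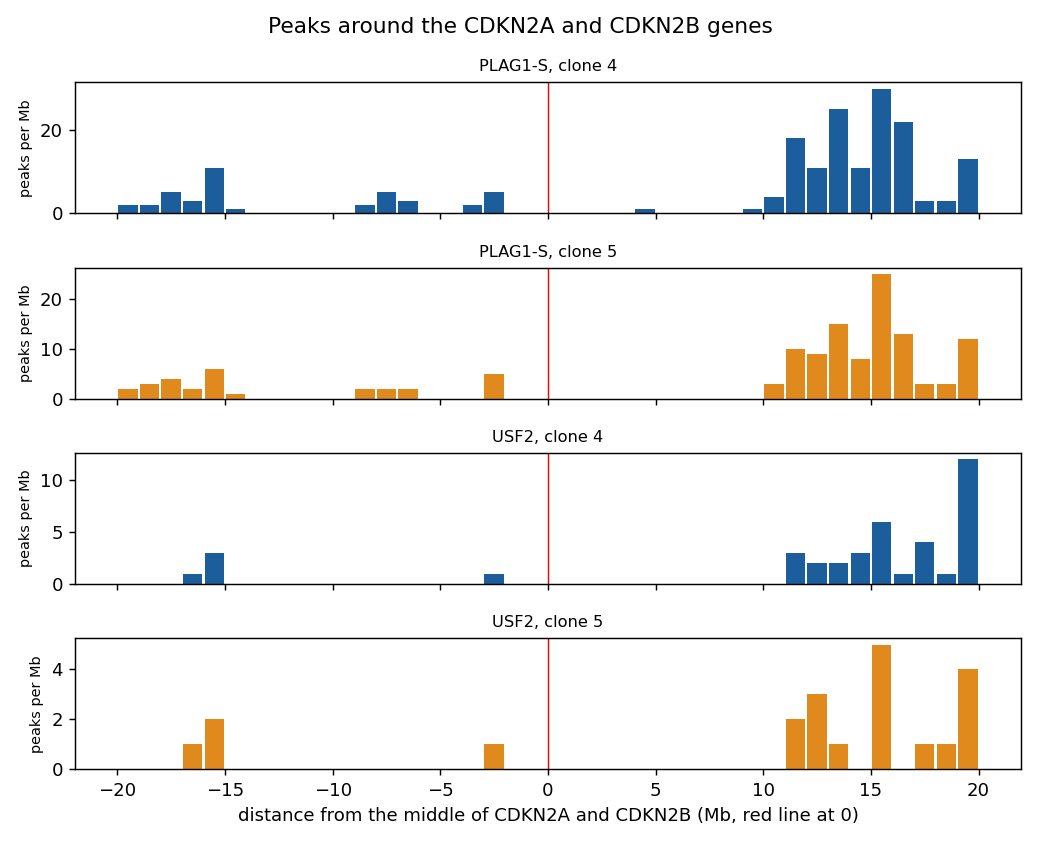
Number of peaks per Mb in each of the 4 lists by distance from the middle of the CDKN2A and CDKN2B genes, with the genes at 0 (red line). Each list is empty across the genes, and the empty stretch is 7.23 Mb long for PLAG1-S in clone 4 and 13.3 to 14.1 Mb long in the other lists.

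Among 49 other genes of the pathway, PLAG1-S was reproducible at 34 and USF2 at 11, all 11 co-bound. These are 69.4% against 52% of all protein-coding genes for PLAG1-S and 22.4% against 10.3% for USF2 (9.98% for co-binding). By complex the counts of PLAG1-S and co-bound genes were 4 and 1 of 5 for the MuvB core, 11 and 3 of 15 for the APC/C and its activators, 6 and 0 of 7 for SCF and CKS, and 4 and 1 of 7 for the CDK-activating kinase and other regulators. They were 4 and 2 of 5 for the spindle checkpoint and 5 and 4 of 10 for replication licensing. Several of these shares were near the background, as at replication licensing for PLAG1-S (50% against 52%). Within 1 kb of either gene end 6 of the 49 were co-bound (12.2% against 7.39%), with 1 of the APC/C, 1 of the spindle checkpoint and 2 of replication licensing. The co-bound genes with the largest clone 4 PLAG1-S folds were ANAPC15 (35.9 in clone 4 and 26.2 in clone 5), an APC/C subunit, MCM7 (32.8 and 30.2), a subunit of the replicative helicase, and CDK7 (31.3 and 23.5), the CDK-activating kinase. MAD1L1 (20.9 and 13.4) and BUB3 (19.8 and 14.2), both of the spindle checkpoint, and RBBP4 (16.5 and 13.6), a MuvB subunit, followed. The ANAPC15 and RBBP4 peaks were nearer to LAMTOR1 and ZBTB8OS.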

How the data were processed

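ChIP-seq libraries from clones 4 and 5 of K562 were sequenced as 50 bp single-end reads, at a depth given in the labels as 42.5 M reads per immunoprecipitation and 55 M per input. The submitters' processing notes name FastQC, cutadapt, HISAT2 2.0.4, SAMtools, MACS2, bedtools and HOMER, without their roles, and hg38. Peaks were called by the authors library by library against the merged inputs, which all 4 lists therefore share. Of the values deposited by the authors, the fold is a ratio at the summit to the local background, and the −log10 p-value and −log10 q-value come from a Poisson model. The score that the authors deposited repeats the −log10 q, as 10 times its value without decimals. These values are conditional on the caller's thresholds, so an absent peak is not a measured 0. Inputs were not analysed by themselves.

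Fragments at each summit and the local background were solved from fold and −log10 p within 0.001, with exact Poisson intervals (scipy 1.17.1). The recovery and the gene matching were tested on simulated data. Genes and promoters came from RefSeq (GRCh38.p14). No strand was given for 9 genes, and for these the nearer gene end replaced the start. No genome sequence was used. Tables were handled with pandas 2.3.3 and numpy 2.4.6 under Python 3.11.15, and plots drawn with matplotlib 3.10.9. The same clone number marks the same cell line in both factors and so pairs the libraries.

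The member genes, groups and other lists were chosen with earlier results of these data known. Values were given for each gene with reproducible USF2 and for the 3 genes per group with the largest clone 4 PLAG1-S fold, with at most 6 co-bound genes of the other pathway list. Peaks were compared by counts and by the range of both clones, with no test. Alternatives changed the q threshold, the combination of clones, the distance to the gene and the distance between the factors.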

Additional observations from a re-analysis of the deposited data

How the results depend on the processing

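Of 44 alternative counts of cell cycle genes with PLAG1-S, USF2 or co-bound peaks, 37 were within 1.5 times the value reported. The PLAG1-S count of 32 could not rise beyond that limit, since there are only 41 genes, so looser settings could not move it. With a −log10 q of at least 10, PLAG1-S was left at 17 of the 41 genes, against 33% of all protein-coding genes. USF2 and co-binding were each left at 5, against 5.85% and 5.74%. The 5 genes were CCND3, CDK4, CDKN2C, E2F6 and FOXM1, 1 in each group. The union of the clones gave 17 genes with USF2 (27.1% of all genes) and 17 co-bound (22.1%). Leaving out each clone in turn gave 35 to 36 genes for PLAG1-S, 8 to 17 for USF2 and 8 to 16 co-bound. The higher USF2 and co-bound values are those of clone 4 alone, without clone 5, where 20.5% of all genes were co-bound, and the higher PLAG1-S value is that of clone 5 alone. Pairing the factors by clone (a replicate block), the within-clone counts averaged 12 co-bound genes (15.9% of all genes). PLAG1-S moved between 25 genes (50% reciprocal overlap) and 37 (union) under the other settings, and a common −log10 q of at least 2 kept the counts at 32, 8 and 8. Of 75 alternative counts by group 52 were within 1.5 times the value reported. Of 43 alternative folds 42 equaled the reported fold or differed from it by less than the SD of the 2 clones. The exception was E2F3, whose USF2 fold was 3.62 within 1 kb of a gene end. The smallest summit at these genes held 13 and 12 fragments in the PLAG1-S lists of clones 4 and 5 and 15 and 18 in the USF2 lists.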
